A study of Homo sapiens with 16 samples.

Results

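The 29 genes described here encode enzymes, regulators and a transfer protein of sterol and fatty acid synthesis. They were chosen as a named list of genes driven by the sterol regulatory element-binding proteins (SREBPs), with no threshold on their values. All 29 were found among the 23459 genes of the count table and all 29 passed the filter on low counts, which kept 15967 genes. RNA was sequenced from the neuroblastoma lines Be(2)-C and IMR5-75, both of which carry MYCN amplification. Each line was grown in RPMI medium with serum and was given DAC (decitabine, an inhibitor of DNA methyltransferases) at 1 µM for 72 h, EPZ-6438 (tazemetostat, an inhibitor of the histone methyltransferase EZH2) at 1 µM for 96 h, the combination of the drugs, or only their solvent, DMSO. Each of the 8 groups of line and treatment held 2 libraries, 16 in all. Whether the libraries of a group were separate cultures is not in the labels, and p-values here cover the spread between libraries and nothing wider. Each line is 1 cell line, and the exposure times of the drugs differ, so DAC and EPZ-6438 were not tested against each other.

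Cells make cholesterol from acetyl-CoA through the mevalonate pathway. Its early enzymes build the isoprenoid farnesyl diphosphate, squalene synthase and squalene epoxidase commit it to sterols, and a chain of later enzymes turns lanosterol into cholesterol. SREBPs are membrane-bound transcription factors encoded by SREBF1 and SREBF2. When sterols are scarce the escort protein SCAP carries them to the Golgi, where they are cut and released to the nucleus. When sterols are plentiful INSIG1 holds SCAP and the SREBPs in the endoplasmic reticulum. SREBF2 products act mainly on sterol genes and SREBF1 products mainly on fatty acid genes, and SREBPs usually bind beside other factors such as NF-Y, which binds CCAAT.

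Promoter sequences from RefSeq (GRCh38.p14) matched 25 of the 29 members by symbol, and the 250 bases before each start were searched on both strands. ACAT2, FDFT1, SQLE and FASN had no match. The sterol regulatory element TCACNCCAC was present in 1 of these 25 promoters, that of SREBF2, or 4% of them, against 0.875% of 27305 promoters. CCAAT was present in 15 of 25, or 60%, against 33.0% of all promoters, and GGGCGG in 23 of 25, or 92%, against 42.3%. The 27305 promoters include those of genes that did not pass the filter on low counts, which all members passed. Promoters of tested genes alone were not set beside the members. Searched matches are letters only and are not evidence of binding. The last 200 bases before the start are shown, 5′ to 3′ on the gene's strand, for 3 members that fell in several comparisons (HMGCS1, EBP and INSIG1), for the 1 promoter with the sterol element (SREBF2), and for the 2 members that rose in several comparisons (STARD4 and TM7SF2). The stretches are chr5:43313413-43313612 on the minus strand, chrX:48521608-48521807 on the plus strand, chr7:155297678-155297877 on the plus strand, chr22:41832905-41833104 on the plus strand, chr5:111512536-111512735 on the minus strand and chr11:65111672-65111871 on the plus strand. Capitals mark CCAAT, read as ATTGG where it lies on the other strand, and the sterol element of SREBF2. No 2 capital stretches overlap, and GGGCGG is left in lower case.
HMGCS1: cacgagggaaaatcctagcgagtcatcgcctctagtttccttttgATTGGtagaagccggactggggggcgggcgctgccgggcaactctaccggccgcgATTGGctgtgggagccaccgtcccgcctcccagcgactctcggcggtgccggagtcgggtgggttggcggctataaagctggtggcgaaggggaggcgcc
EBP: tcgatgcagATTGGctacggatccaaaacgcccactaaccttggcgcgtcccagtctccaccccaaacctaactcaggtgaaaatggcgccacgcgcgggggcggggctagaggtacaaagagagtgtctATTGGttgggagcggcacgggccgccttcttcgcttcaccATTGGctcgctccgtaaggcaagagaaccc
INSIG1: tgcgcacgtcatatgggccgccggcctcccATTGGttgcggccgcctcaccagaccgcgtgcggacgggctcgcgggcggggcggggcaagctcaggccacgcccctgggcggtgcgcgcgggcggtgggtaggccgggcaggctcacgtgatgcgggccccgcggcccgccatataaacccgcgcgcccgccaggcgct
SREBF2: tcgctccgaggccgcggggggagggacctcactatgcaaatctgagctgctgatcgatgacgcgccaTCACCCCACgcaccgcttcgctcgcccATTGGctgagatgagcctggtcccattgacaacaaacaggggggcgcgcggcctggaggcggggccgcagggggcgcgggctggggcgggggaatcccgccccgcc
STARD4: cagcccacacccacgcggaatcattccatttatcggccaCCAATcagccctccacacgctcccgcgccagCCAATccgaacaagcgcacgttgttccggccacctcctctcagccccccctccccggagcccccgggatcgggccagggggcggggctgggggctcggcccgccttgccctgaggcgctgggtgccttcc
TM7SF2: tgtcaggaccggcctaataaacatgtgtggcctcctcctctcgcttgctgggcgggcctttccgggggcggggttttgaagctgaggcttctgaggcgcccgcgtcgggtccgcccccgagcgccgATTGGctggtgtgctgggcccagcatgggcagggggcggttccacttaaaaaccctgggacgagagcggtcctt
CCAAT stood in the promoters of members that fell and of members that rose.

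Library totals ran from 9539557 to 14032155 counts, and replicate libraries differed by more than counting noise in every group. Of 10 listed noradrenergic markers, levels are given for HAND2, GATA3, TH and DBH, chosen after their values were seen. Both lines expressed HAND2 and GATA3, transcription factors of sympathetic and noradrenergic neuroblastoma cells. HAND2 ran from 596.7 to 806 counts per 1e6 counts (CPM), with a median of 636, in Be(2)-C and from 352 to 540.2 CPM, with a median of 395.5, in IMR5-75. GATA3 ran from 32.4 to 63.8 CPM, with a median of 38.5, in Be(2)-C and from 27.1 to 39.0 CPM, with a median of 31.6, in IMR5-75. TH and DBH, the enzymes that define catecholamine synthesis, differed between the lines. TH had 587 to 862 counts per library in Be(2)-C and 0 to 33 in IMR5-75, with 0 counts in 3 of its 8 libraries, and DBH had 1378 to 2610 counts in Be(2)-C and 14 to 216 in IMR5-75. All these ranges span DMSO and treated libraries. Of the 10 listed markers, 2 were called higher and 2 lower after DAC in IMR5-75, beside 19.9% and 13.8% of all genes. After both drugs there, 2 were higher and 3 lower, beside 25.7% and 20.4%. In Be(2)-C, 0 were called after DAC, and 0 higher and 3 lower after both drugs, beside 13.2% and 10.4%. Summed levels of adipocyte and liver markers, from tissues with high lipid synthesis, were 0.816 to 2.5 CPM in Be(2)-C and 0.841 to 2.92 CPM in IMR5-75. Haematopoietic markers summed to 3.05 to 6.58 CPM in Be(2)-C, with HBB at 0 in all its libraries. In IMR5-75 they summed to 7.93 and 9.05 CPM after DAC, 5.6 and 4.48 CPM after EPZ-6438 and 9.32 and 10.45 CPM after both drugs, against 4.79 and 5.05 CPM in DMSO. Epithelial markers moved with DAC in Be(2)-C. They summed to 19.8 and 23.0 CPM after DAC and 7.08 and 6.385 CPM after EPZ-6438. After both drugs they summed to 26.7 and 28.5 CPM, against 7.25 and 5.05 CPM in DMSO. Of 4 tested markers, 3 were called higher after DAC and 4 after both drugs, beside 3.73% and 13.2% of all genes. In IMR5-75 the epithelial markers summed to 0.925 to 3.85 CPM. There 2 were called higher and 1 lower after DAC, beside 19.9% and 13.8% of all genes. After both drugs there, 1 was higher and 1 lower, beside 25.7% and 20.4%. The part of these markers in the changes of the lipid genes was not tested. These are bulk RNA measurements, in which fewer cells of a type and less RNA per cell cannot be told apart.

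More members fell than rose in 5 of the 6 comparisons with DMSO, and those that fell included early mevalonate, sterol and fatty acid enzymes in both lines. ACAT2, IDI1, FDPS, SQLE, EBP, INSIG1 and FADS2 each fell in 5 of the 6 comparisons with DMSO, with EPZ-6438 in IMR5-75 as the exception, and TM7SF2 and STARD4 rose in IMR5-75. The comparisons within a line share their DMSO libraries. A gene was called at an adjusted p under 0.05 in edgeR's quasi-likelihood test with Benjamini-Hochberg adjustment over all 15967 genes, and fold changes are log2 of treated over DMSO.

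After DAC in Be(2)-C, 14 members fell and 0 rose, where 2.97% of all genes tested fell and 3.73% rose. Their median log2 change was -0.38, beside 0.02 for all genes tested, and 0 members had a positive change at an unadjusted p under 0.05 or by DESeq2. EPZ-6438 in Be(2)-C lowered 8 members and raised 0, against 4.85% and 5.35% of all genes, with a median of -0.22 beside 0.02. Again 0 members rose at an unadjusted p under 0.05 or by DESeq2. Both drugs in Be(2)-C lowered 16 members and raised 1 (TM7SF2), against 10.4% and 13.2% of all genes, with a median of -0.41 beside 0.05. The calls that held under every alternative fit and left-out library were ACAT2, DHCR7, HMGCS1, SCD and SQLE after DAC, ACAT2 and FDPS after EPZ-6438, and after both drugs ACAT2, CYP51A1, DHCR7, EBP, FDPS, HMGCS1, IDI1, INSIG1, SCD and SQLE. With any 1 library of a comparison left out, fewer members were called after each treatment. Fewer of all genes were called in those fits as well, so the drop was not particular to the members.

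In IMR5-75 members fell after DAC and after both drugs, and EPZ-6438 alone gave a single call. DAC lowered 14 members and raised 2 (TM7SF2 and STARD4), against 13.8% and 19.9% of all genes tested, with a median of -0.31 beside 0.02. Both drugs lowered 15 and raised 3 (TM7SF2, STARD4 and FDFT1), against 20.4% and 25.7% of all genes, with a median of -0.32 beside 0.03. EPZ-6438 raised 1 member (STARD4) and lowered 0, against 1.63% and 0.344% of all genes, with a median of -0.15 beside 0.01. At an unadjusted p under 0.05, 7 members were lower after EPZ-6438, and DESeq2 called 1 lower. How many of all genes passed that unadjusted threshold is not given here, so the 7 cannot be set against a background. Under every alternative fit and left-out library, ACACA, ACAT2, FADS2, INSIG1, SCD, STARD4 and TM7SF2 stayed called after DAC, and these and ACLY, EBP, FADS1, IDI1 and SQLE after both drugs. Fewer members were called lower after DAC when any 1 library of that comparison was left out, and fewer of all genes were called as well. The STARD4 call after EPZ-6438 was lost when any 1 of its 4 libraries was left out. It was also lost with the replicate block and with each line fitted alone.

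**Figure D1:**
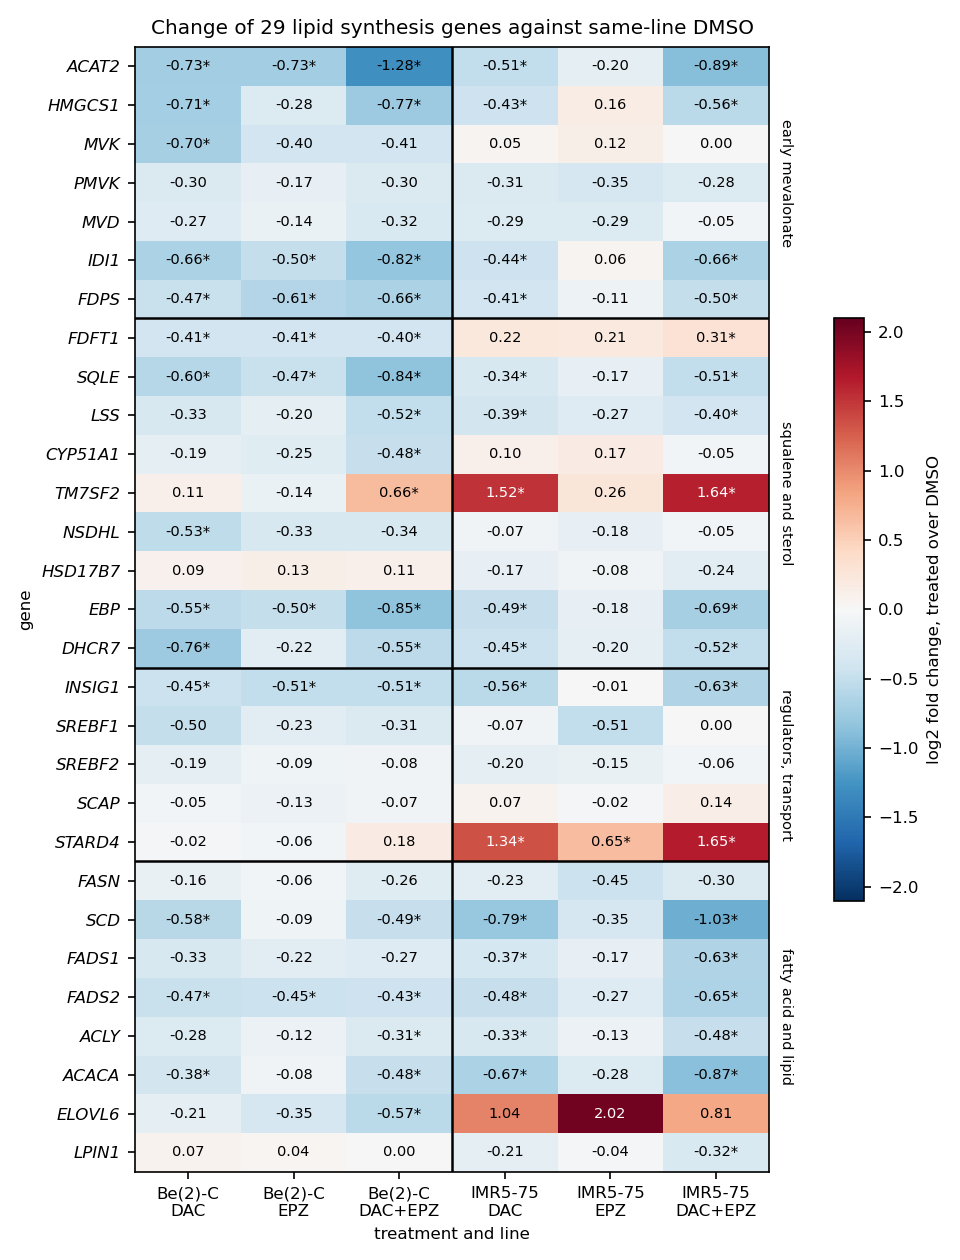
Heat map of the log2 fold change, treated over same-line DMSO, of the 29 members (rows, in 4 groups by role) in the 6 comparisons (columns). An asterisk marks an adjusted p under 0.05 in edgeR's quasi-likelihood test. Blue cells fill most rows, while TM7SF2 and STARD4 are red in IMR5-75, and the unmarked red cells of ELOVL6 in IMR5-75 rest on 4 to 17 counts per group.

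Of the 7 early mevalonate enzymes, 5 fell after DAC, 3 after EPZ-6438 and 4 after both drugs in Be(2)-C, and 4, 0 and 4 fell after the same treatments in IMR5-75. None of the 7 rose in any of these 6 comparisons. Of all genes tested, 2.97%, 4.85% and 10.4% fell in Be(2)-C and 13.8%, 0.344% and 20.4% in IMR5-75, in the same order. The shares that rose were 3.73%, 5.35% and 13.2% in Be(2)-C and 19.9%, 1.63% and 25.7% in IMR5-75. ACAT2, the cytosolic thiolase that condenses acetyl-CoA, had 44.5 and 45.3 CPM after DAC, 40.6 and 49.2 CPM after EPZ-6438 and 32.8 and 28.5 CPM after both drugs in Be(2)-C, against 74.3 and 74.4 CPM in DMSO. All 6 treated libraries lay below both DMSO libraries, and both combination libraries lay below all libraries given 1 drug. ACAT2 fell by 0.73 ± 0.12 on the log2 scale after DAC (SE, edgeR adjusted p = 0.000554), by 0.73 ± 0.12 after EPZ-6438 (adjusted p = 0.000368) and by 1.28 ± 0.12 after both drugs (adjusted p = 2.11e-07). In IMR5-75 it had 66.1 and 65.7 CPM after DAC, 82.6 and 81.3 CPM after EPZ-6438 and 49.6 and 52.1 CPM after both drugs, against 91.85 and 96.1 CPM in DMSO. It fell by 0.51 ± 0.11 after DAC (edgeR adjusted p = 0.00155) and by 0.89 ± 0.12 after both drugs (adjusted p = 2.47e-06), and its log2 change after EPZ-6438 was -0.20, which did not pass the test. ACAT2 shares exon sequence on opposite strands with TCP1 and SOD2, and the strand setting of the counting is not given in the sources used here.

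IDI1, the isomerase that makes the reactive isoprene unit, had 62.5 and 72.5 CPM after DAC, 69.9 and 81.0 CPM after EPZ-6438 and 68.7 and 52.2 CPM after both drugs in Be(2)-C, against 108 and 106 CPM in DMSO. The treated and DMSO libraries did not overlap, and its log2 change after both drugs was -0.82 ± 0.15 (edgeR adjusted p = 0.00038). IDI1 in IMR5-75 had 39.1 and 51.5 CPM after DAC and 42.8 and 34.8 CPM after both drugs, against 61.55 and 60.9 CPM in DMSO, whereas its 61.2 and 66.4 CPM after EPZ-6438 overlapped DMSO. FDPS, which makes farnesyl diphosphate, had 98.8 and 117 CPM after DAC, 97.1 and 99.1 CPM after EPZ-6438 and 91.6 and 97.5 CPM after both drugs in Be(2)-C, against 154 and 145 CPM in DMSO. It fell by 0.47 ± 0.13, 0.61 ± 0.13 and 0.66 ± 0.13 in that order (edgeR adjusted p = 0.0258, 0.00319 and 0.00058). In IMR5-75 FDPS had 218 and 195.5 CPM after DAC, 259 and 247 CPM after EPZ-6438 and 175 and 212 CPM after both drugs, against 248 and 299.7 CPM in DMSO, so that only the EPZ-6438 libraries overlapped DMSO.

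HMGCS1 makes the substrate of the rate-limiting step of the pathway. It had 128.5 and 129 CPM after DAC and 127 and 120.3 CPM after both drugs in Be(2)-C, against 206 and 215 CPM in DMSO, and fell by 0.71 ± 0.14 (edgeR adjusted p = 0.00335) and 0.77 ± 0.14 (adjusted p = 0.000393). After EPZ-6438 its libraries stood at 156 and 190.3 CPM, also below both DMSO libraries, with a log2 change of -0.28 that did not pass. In IMR5-75 HMGCS1 was called lower after DAC (-0.43) and after both drugs (-0.56). These calls held under 6 and 7 of 9 alternatives. It had 45.4 and 58.5 CPM after DAC and 52.9 and 42.2 CPM after both drugs there, against 74.3 and 65.4 CPM in DMSO. Its 70.3 and 86.2 CPM after EPZ-6438 overlapped DMSO. MVK, the first kinase on mevalonate, fell only after DAC in Be(2)-C among the 6 comparisons, by 0.70 ± 0.18 (edgeR adjusted p = 0.0222). PMVK and MVD, the next kinase and the decarboxylase, passed in none of the 6, with log2 changes of -0.35 to -0.17 for PMVK and -0.32 to -0.05 for MVD.

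Among the 9 squalene and sterol enzymes, 5 fell after DAC, 3 after EPZ-6438 and 6 after both drugs in Be(2)-C, and 4, 0 and 4 fell in IMR5-75. The shares of all genes tested that fell were 2.97%, 4.85% and 10.4% in Be(2)-C and 13.8%, 0.344% and 20.4% in IMR5-75. SQLE, squalene epoxidase, had 198 and 192 CPM after DAC, 201.5 and 225 CPM after EPZ-6438 and 169.8 and 159 CPM after both drugs in Be(2)-C, against 297 and 292 CPM in DMSO. Every treated library was lower than both DMSO libraries, and SQLE fell by 0.60 ± 0.11, 0.47 ± 0.11 and 0.84 ± 0.11 on the log2 scale (edgeR adjusted p = 0.00166, 0.00814 and 9.32e-06). In IMR5-75 SQLE had 98.2 and 116 CPM after DAC, 122 and 119 CPM after EPZ-6438 and 94.1 and 95.7 CPM after both drugs, against 128 and 143 CPM in DMSO. These groups did not overlap either, and the changes after DAC and after both drugs passed at -0.34 ± 0.11 (edgeR adjusted p = 0.0227) and -0.51 ± 0.11 (adjusted p = 0.000706).

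EBP, the sterol isomerase, had 57.75 and 62.25 CPM after DAC, 57.0 and 66.8 CPM after EPZ-6438 and 49.9 and 47.4 CPM after both drugs in Be(2)-C, against 89.0 and 86.5 CPM in DMSO. Its change after both drugs was -0.85 ± 0.14 (edgeR adjusted p = 0.000107), and no treated library reached a DMSO library. EBP in IMR5-75 had 36.4 and 33.1 CPM after DAC, 47.85 and 38.2 CPM after EPZ-6438 and 27.2 and 33.2 CPM after both drugs, against 44.9 and 52.8 CPM in DMSO, and fell by 0.49 ± 0.14 after DAC (edgeR adjusted p = 0.00978) and by 0.69 ± 0.14 after both drugs (adjusted p = 0.000387). DHCR7, which acts at the last reduction to cholesterol, fell after DAC and after both drugs in each line, by 0.76 ± 0.13 and 0.55 ± 0.13 in Be(2)-C (edgeR adjusted p = 0.00124 and 0.00442) and by 0.45 ± 0.13 and 0.52 ± 0.13 in IMR5-75 (adjusted p = 0.0114 and 0.00264). LSS, which closes the sterol rings, fell after both drugs in each line and after DAC in IMR5-75, with called changes of -0.52 to -0.39. CYP51A1, the lanosterol demethylase, fell only after both drugs in Be(2)-C (-0.48 ± 0.11, edgeR adjusted p = 0.00376) and NSDHL, a decarboxylating dehydrogenase, only after DAC in Be(2)-C (-0.53 ± 0.15, adjusted p = 0.0368, held under 4 of 9 alternatives), among the 6 comparisons. HSD17B7 passed in none of them, with changes of -0.24 to 0.13.

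TM7SF2, a sterol reductase that acts just after CYP51A1, rose after DAC and after both drugs in IMR5-75 and after both drugs in Be(2)-C. In IMR5-75 it had 21.5 and 16.8 CPM after DAC, 7.80 and 8.10 CPM after EPZ-6438 and 19.5 and 22.1 CPM after both drugs, against 4.79 and 8.66 CPM in DMSO. The DAC and combination libraries lay clear of DMSO and the EPZ-6438 libraries lay within its range. It rose by 1.52 ± 0.21 after DAC (edgeR adjusted p = 8.74e-06) and by 1.64 ± 0.21 after both drugs (adjusted p = 1.6e-06). TM7SF2 in Be(2)-C had 17.2 and 18.15 CPM after DAC, 13.6 and 16.2 CPM after EPZ-6438 and 25.1 and 26.5 CPM after both drugs, against 17.7 and 15.1 CPM in DMSO, and only the combination stood apart, at 0.66 ± 0.19 (edgeR adjusted p = 0.016). That call was lost without DMSO replicate 2 (0.54, adjusted p = 0.153), without combination replicate 1 (0.69, adjusted p = 0.0526) and without combination replicate 2 (0.61, adjusted p = 0.0913).

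FDFT1, squalene synthase, went opposite ways in the 2 lines. Be(2)-C cells had 114 and 120.2 CPM after DAC, 106 and 128 CPM after EPZ-6438 and 123 and 113 CPM after both drugs, against 153.5 and 157 CPM in DMSO. IMR5-75 cells had 106 and 107.5 CPM after DAC, 113 and 100.5 CPM after EPZ-6438 and 107 and 122 CPM after both drugs, against 85.1 and 99.0 CPM in DMSO. All 6 treated libraries were below DMSO in Be(2)-C and all 6 were above it in IMR5-75. The changes of -0.41 ± 0.12, -0.41 ± 0.12 and -0.40 ± 0.12 in Be(2)-C passed (edgeR adjusted p = 0.0426, 0.0312 and 0.019), as did 0.31 ± 0.12 after both drugs in IMR5-75 (adjusted p = 0.035). These are narrow calls: each Be(2)-C call was lost when either DMSO replicate was left out (changes of -0.44 and -0.39 after DAC without replicates 1 and 2). The DAC call was also lost without either DAC replicate, the EPZ-6438 call without EPZ-6438 replicate 1 and the combination call without combination replicate 2, and the IMR5-75 call was lost without DMSO replicate 1 or combination replicate 2 (0.26 in each case).

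Of the 5 regulators and sterol transport genes, INSIG1 fell in 5 comparisons and STARD4 rose in 3, while SREBF1, SREBF2 and SCAP passed in none of the 6. Of all genes tested, 2.97%, 4.85% and 10.4% fell after DAC, EPZ-6438 and both drugs in Be(2)-C. In IMR5-75, 13.8%, 0.344% and 20.4% of all genes fell and 19.9%, 1.63% and 25.7% rose. INSIG1, itself a sterol-responsive gene, had 46.8 and 44.65 CPM after DAC, 44.2 and 43.5 CPM after EPZ-6438 and 44.0 and 43.5 CPM after both drugs in Be(2)-C, against 62.3 and 62.4 CPM in DMSO. The 3 treatments gave nearly the same level, with changes of -0.45 ± 0.12, -0.51 ± 0.12 and -0.51 ± 0.12 (edgeR adjusted p = 0.0277, 0.00915 and 0.00378), of which the DAC call held under 4 of 9 alternatives. In IMR5-75 INSIG1 had 28.6 and 28.3 CPM after DAC, 42.25 and 41.1 CPM after EPZ-6438 and 27.3 and 26.8 CPM after both drugs, against 37.4 and 46.7 CPM in DMSO. It fell by 0.56 ± 0.12 after DAC (edgeR adjusted p = 0.00134) and by 0.63 ± 0.12 after both drugs (adjusted p = 0.000247), and the EPZ-6438 libraries lay within the DMSO range. Transcripts of the transcription factors changed by -0.51 to 0.00 (SREBF1) and by -0.20 to -0.06 (SREBF2), and that of the escort SCAP by -0.13 to 0.14. Replicate libraries of SREBF1 were far apart, at 33.7 and 20.8 CPM after DAC in IMR5-75 against 23.15 and 34.3 CPM in DMSO, so changes of this size in SREBF1 were not detectable with 2 libraries a group. The libraries measure transcripts, and the cleavage that activates SREBPs was not measured.

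STARD4, a soluble carrier that moves sterols between membranes, rose in IMR5-75. It had 88.2 and 116 CPM after DAC, 58.3 and 68.05 CPM after EPZ-6438 and 140.6 and 113 CPM after both drugs, against 39.6 and 41.1 CPM in DMSO. No treated library overlapped DMSO, and the changes were 1.34 ± 0.16 (edgeR adjusted p = 1.2e-06), 0.65 ± 0.16 (adjusted p = 0.036) and 1.65 ± 0.16 (adjusted p = 3.83e-08). The EPZ-6438 call was lost when any 1 of the 4 libraries of that comparison was left out, at changes of 0.53 without EPZ-6438 replicate 2, 0.76 without EPZ-6438 replicate 1, 0.63 without DMSO replicate 1 and 0.67 without DMSO replicate 2. STARD4 in Be(2)-C had 201 and 153.5 CPM after DAC, 156 and 189 CPM after EPZ-6438 and 205 and 202 CPM after both drugs, against 172 and 188 CPM in DMSO, and passed in no comparison with DMSO. Both TM7SF2 and STARD4 rose in a line whose summed mesenchymal markers were 282.5 and 290 CPM after DAC, 114 and 116 CPM after EPZ-6438 and 519 and 499 CPM after both drugs, against 79.5 and 76.3 CPM in DMSO, and the part of that change in theirs was not tested. The same 7 markers in Be(2)-C summed to 231.8 to 279 CPM over all libraries.

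Of the 8 fatty acid and lipid enzymes, 3 fell after DAC, 1 after EPZ-6438 and 5 after both drugs in Be(2)-C, and 5, 0 and 6 fell in IMR5-75. The shares of all genes tested that fell were 2.97%, 4.85% and 10.4% in Be(2)-C and 13.8%, 0.344% and 20.4% in IMR5-75. FADS2, a front-end desaturase of polyunsaturated fatty acids, had 96.9 and 106 CPM after DAC, 107 and 98.7 CPM after EPZ-6438 and 101 and 108 CPM after both drugs in Be(2)-C, against 141 and 140.2 CPM in DMSO. Its falls there were alike, at -0.47 ± 0.11, -0.45 ± 0.11 and -0.43 ± 0.11 (edgeR adjusted p = 0.0112, 0.0101 and 0.00647). In IMR5-75 FADS2 had 197 and 174.5 CPM after DAC, 217 and 210.5 CPM after EPZ-6438 and 158 and 172 CPM after both drugs, against 247.5 and 269.6 CPM in DMSO. No group overlapped DMSO, and the changes after DAC (-0.48 ± 0.11, edgeR adjusted p = 0.00158) and after both drugs (-0.65 ± 0.11, adjusted p = 4.26e-05) passed. FADS2 shares exon sequence with FADS1 on the opposite strand and with FEN1, a DNA replication nuclease, on the same strand, so part of its reads could be of those genes.

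SCD, the desaturase that makes oleate, had the largest fall of the 29 members in IMR5-75 after DAC and after both drugs. There it had 294 and 326 CPM after DAC, 412 and 430.2 CPM after EPZ-6438 and 275 and 251 CPM after both drugs, against 543 and 531 CPM in DMSO. It fell by 0.79 ± 0.10 after DAC (edgeR adjusted p = 5.1e-06) and by 1.03 ± 0.10 after both drugs (adjusted p = 8.59e-08), with no overlap between treated and DMSO libraries. SCD in Be(2)-C had 334 and 306 CPM after DAC, 452 and 448 CPM after EPZ-6438 and 335 and 351 CPM after both drugs, against 471 and 489 CPM in DMSO. It fell there by 0.58 ± 0.10 after DAC (edgeR adjusted p = 0.00134) and by 0.49 ± 0.10 after both drugs (adjusted p = 0.00167), with the EPZ-6438 libraries just below DMSO. ACACA, the carboxylase that makes malonyl-CoA, had 94.9 and 102 CPM after DAC and 88.5 and 83.0 CPM after both drugs in IMR5-75, against 158.5 and 156 CPM in DMSO, and fell by 0.67 ± 0.11 (edgeR adjusted p = 0.000114) and 0.87 ± 0.11 (adjusted p = 2.79e-06).

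ACACA in Be(2)-C fell by 0.38 ± 0.11 after DAC and 0.48 ± 0.11 after both drugs (edgeR adjusted p = 0.0458 and 0.00399), the DAC call holding under 3 of 9 alternatives, and the difference between the lines did not pass the test. ACLY, which makes cytosolic acetyl-CoA from citrate, fell after both drugs in each line (-0.31 ± 0.10 in Be(2)-C and -0.48 ± 0.10 in IMR5-75, edgeR adjusted p = 0.0339 and 0.000634). Its Be(2)-C call held under 5 of 9 alternatives. In IMR5-75 ACLY also fell after DAC (-0.33), a call that held under 6 of 9 alternatives. FADS1, the partner desaturase of FADS2, fell in IMR5-75 after DAC (-0.37 ± 0.10, edgeR adjusted p = 0.00608) and after both drugs (-0.63 ± 0.10, adjusted p = 2.28e-05). In Be(2)-C its changes of -0.33 ± 0.10 after DAC and -0.27 ± 0.10 after both drugs narrowly missed (edgeR adjusted p = 0.0529 and 0.0575). Those treated libraries lay below DMSO, and no difference of FADS1 change between the lines was called. LPIN1, a phosphatidate phosphatase, fell only after both drugs in IMR5-75 (-0.32 ± 0.11, edgeR adjusted p = 0.027, a call that held under 2 of 9 alternatives) and the elongase ELOVL6 only after both drugs in Be(2)-C (-0.57 ± 0.16, adjusted p = 0.0157), among the 6 comparisons. FASN, fatty acid synthase itself, passed in none, with changes of -0.45 to -0.06 and replicate libraries as far apart as 205 and 113.5 CPM after EPZ-6438 in Be(2)-C against 171.5 and 161 CPM in DMSO. ELOVL6 was near the floor of 3 counts per library in IMR5-75, with 17 counts over both EPZ-6438 libraries against 4 over both DMSO libraries, a ratio of 4.26 with a 95% exact interval of 1.39 to 17.4 that covers counting error only.

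**Figure D2:**
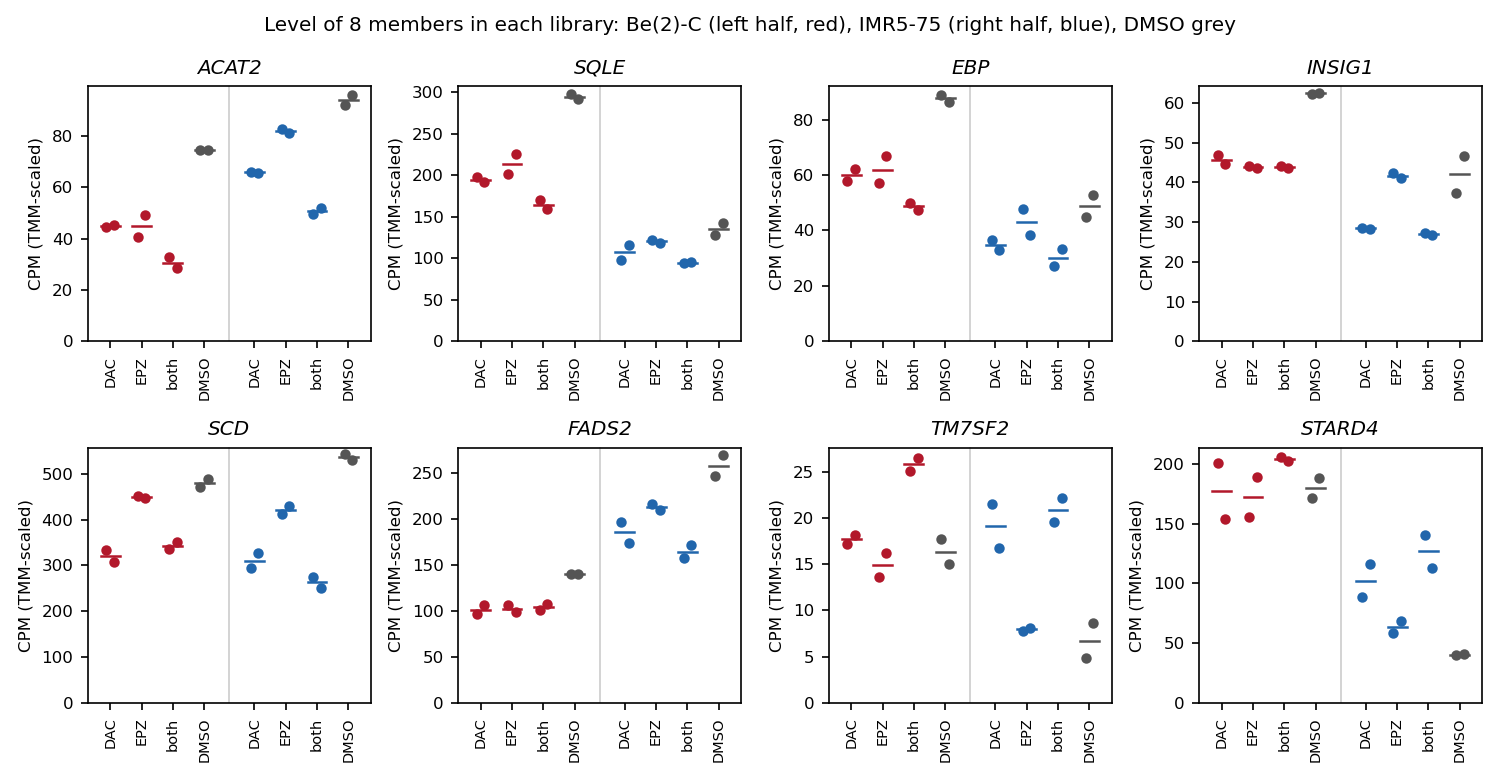
CPM of 8 members in each library (dots) with the group mean (line), by treatment on the horizontal axis, Be(2)-C in red on the left and IMR5-75 in blue on the right of each panel, with DMSO in grey. ACAT2, SQLE, EBP, INSIG1, SCD and FADS2 lie highest in DMSO in most panels, while TM7SF2 and STARD4 have their lowest group mean in DMSO in IMR5-75.

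The combination was set against each drug alone to ask what the added drug did. Adding EPZ-6438 to DAC lowered 1 member in Be(2)-C, ACAT2, and raised 0, against 2.02% and 3.42% of all genes tested. ACAT2 fell by a further 0.55 ± 0.12 (edgeR adjusted p = 0.00926), a call lost without DAC replicate 2 (adjusted p = 0.0714) or without combination replicate 2 (adjusted p = 0.149). For rises, 1 member had an unadjusted p under 0.05 and DESeq2 called 0. In IMR5-75 adding EPZ-6438 to DAC gave 0 calls in either direction, against 0.72% lower and 1.22% higher of all genes. DESeq2 also gave 0 calls. At an unadjusted p under 0.05, 3 members were lower and 0 higher, and the share of all genes at that threshold is not given here.

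Adding DAC to EPZ-6438 gave more member calls than adding EPZ-6438 to DAC in each line. More of all genes were called as well in IMR5-75. There 12 members fell and 2 rose, against 16.9% and 20.7% of all genes tested, and the members that rose were TM7SF2 (1.39 ± 0.20, edgeR adjusted p = 1.67e-05) and STARD4 (1.00 ± 0.15, adjusted p = 2.98e-05). The calls of ACACA, ACAT2, FADS1, HMGCS1, IDI1, INSIG1, SCD, STARD4 and TM7SF2 held under every alternative. Among called members HMGCS1 and IDI1 had the largest falls, of 0.72 ± 0.14 and 0.72 ± 0.15 (edgeR adjusted p = 0.000541 and 0.00084). With any 1 library of this comparison left out, fewer members and fewer of all genes were called. In Be(2)-C 3 members fell (ACAT2 by 0.55 ± 0.12, SCD by 0.39 ± 0.10 and ACACA by 0.40 ± 0.11, edgeR adjusted p = 0.0109, 0.032 and 0.0488) and TM7SF2 rose (0.79 ± 0.19, adjusted p = 0.0187), against 1.37% and 2.84% of all genes. No call of these 4 outlasted every left-out library, and fewer of all genes were called in each of those fits as well.

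The interaction asked whether both drugs together differed from the sum of the single changes on the log2 scale. For Be(2)-C 0 members were called in either direction by edgeR, against 0.0125% higher and 0.244% lower of all genes tested, and DESeq2 also called 0. At an unadjusted p under 0.05, 8 members lay above the sum and 0 below, and the median over the 29 was 0.20, beside 0.00 for all genes. The share of all genes at that unadjusted threshold is not given here. A positive median was not particular to the members: 20 proliferation genes had a median of 0.24 in this interaction, with all 20 positive. FADS2 had the smallest p of the 8 members, at 0.49 ± 0.15 (edgeR adjusted p = 0.415), its level being about the same after each drug and after both. In IMR5-75 edgeR and DESeq2 called 0 members, against 0.0125% higher and 0.0125% lower of all genes, with 0 above and 2 below the sum at an unadjusted p under 0.05 and a median of 0.00 beside -0.04.

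The change under each treatment was then compared between the lines, as Be(2)-C minus IMR5-75. For DAC, 3 members were called lower in Be(2)-C and 0 higher, against 5.13% and 1.06% of all genes tested: STARD4 by -1.36 ± 0.22, TM7SF2 by -1.41 ± 0.29 and FDFT1 by -0.62 ± 0.17 (edgeR adjusted p = 0.000217, 0.00281 and 0.0271). For rises 0 members had an unadjusted p under 0.05 and DESeq2 called 0. For both drugs, 3 members were lower and 1 higher, against 6.71% and 4.35%: STARD4 by -1.47 ± 0.22, FDFT1 by -0.71 ± 0.17, TM7SF2 by -0.99 ± 0.28 and SCD by 0.55 ± 0.15 (edgeR adjusted p = 6.78e-05, 0.00731, 0.0265 and 0.0177). The positive value of SCD means that it fell less in Be(2)-C. For EPZ-6438, 0 members were called in either direction, against 0.57% lower and 0.62% higher of all genes, and DESeq2 called 1 lower. At an unadjusted p under 0.05, 9 members were lower and 0 higher. The share of all genes at that unadjusted threshold is not given here.

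STARD4 under DAC and under both drugs, TM7SF2 under DAC and FDFT1 under both drugs stayed called under every alternative fit. The DAC count of 3 was 2 without either Be(2)-C DMSO replicate, either Be(2)-C DAC replicate or IMR5-75 DMSO replicate 1, where FDFT1 dropped out. The combination count of 4 was 2 without Be(2)-C DMSO replicate 1, Be(2)-C combination replicate 2, IMR5-75 DMSO replicate 1 or IMR5-75 combination replicate 2, where TM7SF2 (-1.01 to -0.68) and SCD (0.42 to 0.53) dropped out. TM7SF2 was also lost without Be(2)-C combination replicate 1 (-0.95), and SCD without Be(2)-C DMSO replicate 2 (0.58) and with no filter on low counts (0.49). The EPZ-6438 count was 1 without Be(2)-C EPZ-6438 replicate 2 or IMR5-75 EPZ-6438 replicate 2.

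**Figure D3:**
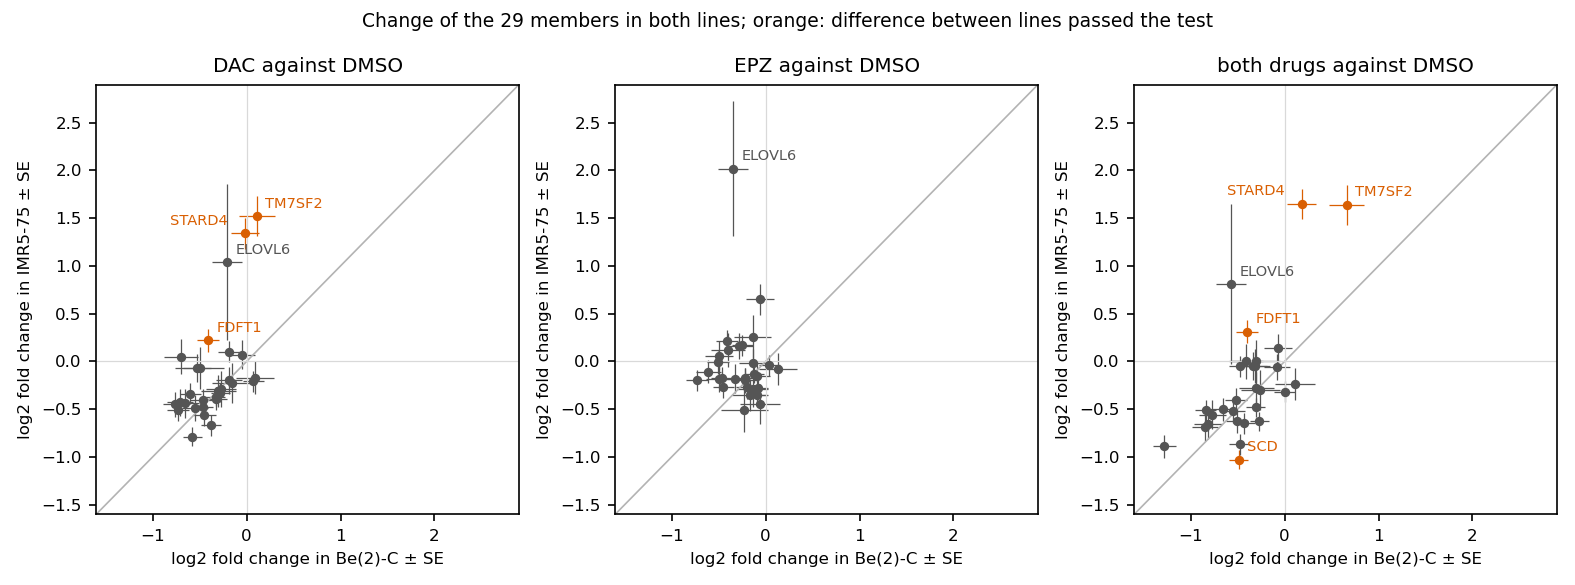
Log2 fold change against DMSO in Be(2)-C (horizontal) and in IMR5-75 (vertical) of the 29 members after DAC, EPZ-6438 and both drugs, with SE bars and a line of equal change. Orange points, where the difference between the lines passed the test, are STARD4, TM7SF2 and FDFT1 after DAC, and these and SCD after both drugs, and most members lie in the lower left part of the panels.

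Without drug, the lines differed in most of the 29 genes. In DMSO, 16 members were higher and 9 lower in Be(2)-C than in IMR5-75, against 31.2% and 32% of all genes tested. ELOVL6, which lengthens palmitate, had 1148 counts over both Be(2)-C DMSO libraries and 4 over both IMR5-75 DMSO libraries, a ratio of 333.2 with a 95% exact interval of 129.8 to 1225. Its level was 52.4 ± 3.19 CPM in Be(2)-C and 0.153 ± 0.0969 CPM in IMR5-75 (SD, n = 2). STARD4 averaged 179.7 ± 11.5 CPM in Be(2)-C and 40.4 ± 1.09 CPM in IMR5-75, a log2 difference of 2.15 ± 0.16 (SE, edgeR adjusted p = 1.2e-10). The Be(2)-C level of STARD4 in DMSO thus stood above every treated IMR5-75 library.

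Pathway enzymes did not shift together between the lines. MVD and HMGCS1 were higher in Be(2)-C by 1.66 ± 0.17 and 1.59 ± 0.14 (edgeR adjusted p = 3.23e-08 and 3.01e-09), as were SQLE by 1.12 ± 0.11 and TM7SF2 by 1.3 ± 0.21 (adjusted p = 1.17e-08 and 1.75e-05), whereas FDPS was lower by 0.87 (-0.87 ± 0.12, adjusted p = 2.43e-06) and HSD17B7 by 1.34 (-1.34 ± 0.19, adjusted p = 2.2e-06). SREBF2 was higher in Be(2)-C, at 205 ± 10.1 CPM and 79.2 ± 18.7 CPM in IMR5-75 (1.37 ± 0.14, edgeR adjusted p = 2.31e-08), while SREBF1 was lower, at 15.5 ± 0.014 CPM and 28.7 ± 7.9 CPM (-0.89 ± 0.24, adjusted p = 0.00255; SD of the 2 libraries). The fatty acid genes FASN, FADS1 and FADS2 were lower in Be(2)-C by -0.98 ± 0.21, -1.01 ± 0.10 and -0.88 ± 0.11 (edgeR adjusted p = 0.000319, 1.37e-08 and 3.18e-07). LSS, DHCR7, SCD and ACLY did not pass, with differences of -0.16 ± 0.12, 0.05 ± 0.13, -0.16 ± 0.10 and -0.09 ± 0.10. With 22 to 23 calls when any 1 DMSO library was left out, the count hardly moved, and the calls lost under 1 alternative or more were those of ACAT2, ACACA, MVK, SREBF1 and SCAP.

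**Figure D4:**
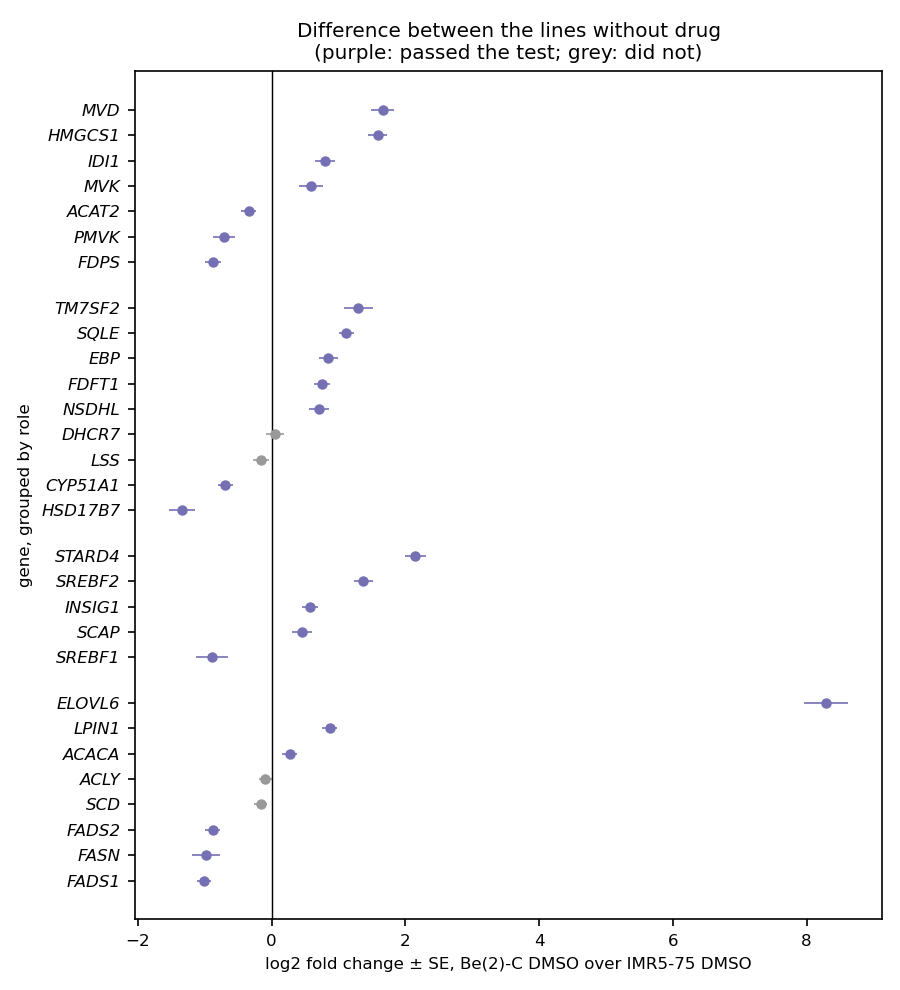
Log2 fold change, Be(2)-C DMSO over IMR5-75 DMSO, of the 29 members (rows, sorted within each role) with SE bars. Purple points passed the test, and members of each role lie on both sides of 0, with ELOVL6 at 8.29 farthest from it.

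Other genes of these pathways were counted from lists of their own. Of 20 further genes of sterol synthesis, uptake and control, 6, 5 and 9 fell after DAC, EPZ-6438 and both drugs in Be(2)-C, and 0, 0 and 1 rose. In IMR5-75, 7, 0 and 8 fell and 3, 0 and 3 rose. Of all genes tested, 2.97%, 4.85% and 10.4% fell and 3.73%, 5.35% and 13.2% rose in Be(2)-C, and 13.8%, 0.344% and 20.4% fell and 19.9%, 1.63% and 25.7% rose in IMR5-75. The medians of the list were -0.27, -0.14 and -0.29 in Be(2)-C and -0.21, -0.04 and -0.21 in IMR5-75. TMEM97, a sterol-regulated membrane protein, fell after EPZ-6438 in Be(2)-C to 108 ± 1.72 CPM, against 172 ± 5.85 CPM in DMSO (-0.67 ± 0.11, edgeR adjusted p = 0.000295). NPC2, which hands cholesterol out of the lysosome, rose after both drugs in IMR5-75 to 21.1 ± 2.34 CPM, against 9.19 ± 0.0327 CPM (1.2 ± 0.17, adjusted p = 9.84e-06).

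Of 8 genes of cholesterol efflux and the liver X receptors, 0, 2 and 4 rose after DAC, EPZ-6438 and both drugs in Be(2)-C. In IMR5-75, 2, 1 and 3 rose, and 1 fell after DAC, where 13.8% of all genes fell. The shares of all genes that rose in the same order were 3.73%, 5.35% and 13.2% in Be(2)-C and 19.9%, 1.63% and 25.7% in IMR5-75, and the medians of the list were 0.27, 0.35 and 0.57 in Be(2)-C and 0.22, 0.23 and 0.14 in IMR5-75. ABCA1, the exporter of cholesterol to lipoproteins, averaged 13.0 ± 2.76 CPM after both drugs in IMR5-75 and 0.442 ± 0.208 CPM in DMSO (4.88 ± 0.36, edgeR adjusted p = 9.24e-10). That DMSO level was near the floor, as 3 counts are 0.214 and 0.239 CPM in those 2 libraries, so the size of the change is uncertain. Be(2)-C cells averaged 5.04 ± 1.05 CPM after both drugs and 1.14 ± 0.054 CPM in DMSO (2.14 ± 0.36, adjusted p = 0.000139). ABCG1, a related exporter, rose after EPZ-6438 in Be(2)-C to 24.9 ± 1.11 CPM, against 15.1 ± 2.91 CPM (0.72 ± 0.17, edgeR adjusted p = 0.00938).

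Genes of cell division fell beside the lipid genes. Of 20 proliferation genes, 14 fell after DAC, 20 after EPZ-6438 and 20 after both drugs in Be(2)-C, and 20, 1 and 20 fell in IMR5-75. Of all genes tested, 2.97%, 4.85% and 10.4% fell in Be(2)-C and 13.8%, 0.344% and 20.4% in IMR5-75. The median log2 changes of the proliferation genes were -0.46, -0.8 and -1 in Be(2)-C and -0.74, -0.24 and -1.13 in IMR5-75. Each was further from 0 than the median of the 29 lipid genes in the same comparison. PCNA, the replication clamp, averaged 121 ± 7.1 CPM after both drugs in Be(2)-C and 312 ± 8.92 CPM in DMSO (-1.37 ± 0.11, edgeR adjusted p = 2.82e-08). The part of this fall in the change of the lipid genes was not tested.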

How the data were processed

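Raw counts per gene symbol, deposited by the authors for 16 libraries, were used as they stand. Per the labels' protocols, ribosomal RNA was depleted and strand-specific libraries were sequenced from 1 end. Per the submitters' processing notes, TopHat2 2.0.5, HTSeq 0.5.3p9, DESeq2 (version not given) and the build hg19 were used; neither the annotation nor the strand setting is given in the sources used. Without them, overlapping genes (7 of the 29 members share exon sequence with a neighbour on the opposite strand) and HSD17B7, which has a pseudogene copy, are uncertain.

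The counts were fitted with edgeR 4.0.16 in R 4.3.3: filterByExpr (15967 genes tested), TMM scaling, and a quasi-likelihood model of 8 groups, which left 8 residual degrees of freedom at a common biological variation of 9.88%. Of the genes in the table, 1191 had 0 counts in every library. CPM values are scaled by TMM. Ratios of groups with few counts carry an exact binomial 95% interval. Alternatives were DESeq2 size factors, no filter, DESeq2 1.42.0, a replicate block, each line fitted alone, and leaving out each library. The fit was tested on simulated data.

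The members and lists were chosen with earlier results of these data known. All 29 members are named, and library values are given for those called in the most comparisons of their role. HMGCS1, TM7SF2, FDFT1, STARD4, SCD, ACACA, SREBF1 and FASN were added after their values were seen. Of the other lists, the called genes with the smallest adjusted p were to be named, and a few of these are given here. Of the noradrenergic markers, HAND2, GATA3, TH and DBH are given, chosen after their values were seen, and the sum over that list is not reported here.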

Additional observations from a re-analysis of the deposited data

Results flagged for a closer look

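The change under the same treatment differed between the lines, by a test of the difference itself (Be(2)-C minus IMR5-75, edgeR's quasi-likelihood test), in 7 results of 4 members. After DAC the log2 difference was -1.36 for STARD4 (adjusted p = 0.000217), -1.41 for TM7SF2 (adjusted p = 0.00281) and -0.62 for FDFT1 (adjusted p = 0.0271). After both drugs it was -1.47 for STARD4 (adjusted p = 6.78e-05), -0.99 for TM7SF2 (adjusted p = 0.0265), -0.71 for FDFT1 (adjusted p = 0.00731) and 0.55 for SCD (adjusted p = 0.0177). STARD4 and TM7SF2, which rose in IMR5-75, stood higher in Be(2)-C than in IMR5-75 in DMSO, FDFT1 moved in opposite directions in the lines, and SCD fell in both lines and further in IMR5-75.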

How the results depend on the processing

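No call of a member changed direction under any alternative. DESeq2 size factors kept 122 of 125 calls, DESeq2 124, no filter on low counts 120, and each line fitted alone 89 of the 93 it covers. The replicate numbers gave no consistent pairing of the libraries. Deviations of same-numbered libraries correlated at -0.314 to 0.017 in Be(2)-C and -0.386 to 0.316 in IMR5-75. In IMR5-75, DAC with EPZ-6438 (0.241) and the combination with DMSO (0.316) were positive, and the other pairs of groups ran from -0.386 to -0.072. Whether libraries shared another source of spread was not tested. With the replicate block, 107 of 125 calls were kept; 9 members were called after DAC in Be(2)-C, 0 after EPZ-6438 in IMR5-75 and 2 for both drugs against EPZ-6438 in Be(2)-C. After EPZ-6438 in IMR5-75 there were 2 calls with no filter, 2 by DESeq2 and 0 with each line fitted alone. For both drugs against DAC in Be(2)-C there were 2 with no filter and 2 with each line alone, and for the difference of the EPZ-6438 change between lines 3 with no filter and 1 by DESeq2. The cause was not tested. Leaving out each library gave, in Be(2)-C, 5 to 9 calls after DAC, 2 to 7 after EPZ-6438, 11 to 15 after both drugs, 0 to 1 for both drugs against DAC and 0 to 2 against EPZ-6438. In IMR5-75 it gave 8 to 13, 0 to 1, 14 to 16, 0 to 0 and 9 to 12 in the same order. It gave 0 to 0 for each interaction, 2 to 4, 0 to 1 and 2 to 4 for the line differences under DAC, EPZ-6438 and both drugs, and 22 to 23 in DMSO. Where 1 library of a group was left, its spread was taken from the remaining groups. In Be(2)-C, fewer of all genes were called too in each such fit of the comparisons with DMSO. In IMR5-75 this held for DAC and for both drugs against DMSO. The smallest called change of a member against DMSO was 0.31 on the log2 scale, and ELOVL6 in IMR5-75 is limited by its 4 to 17 counts per group.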

Other observations

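Of 27 further genes of fatty acid and phospholipid synthesis, 26 were tested. After both drugs in IMR5-75, 9 of them rose and 5 fell, beside 25.7% and 20.4% of all genes tested. After both drugs in Be(2)-C, 1 rose and 5 fell, beside 13.2% and 10.4%. Medians of the list after DAC, EPZ-6438 and both drugs were -0.02, -0.06 and -0.08 in Be(2)-C. In IMR5-75 they were 0.13, 0.03 and 0.13. The genes that rose after both drugs in IMR5-75 included the elongase ELOVL7 and the phosphatidate phosphatase LPIN3. ELOVL7 averaged 13.2 ± 1.92 CPM after both drugs and 4.57 ± 1.15 CPM in DMSO (SD, n = 2, log2 change 1.53 ± 0.23, edgeR adjusted p = 1.5e-05), and LPIN3 averaged 6.36 ± 0.445 CPM and 0.873 ± 0.193 CPM (2.86 ± 0.38, adjusted p = 3.14e-06). In Be(2)-C the acyl-CoA synthetase ACSL3 fell after both drugs to 101.5 ± 7.83 CPM, against 148 ± 4.05 CPM in DMSO (-0.54 ± 0.12, edgeR adjusted p = 0.00178), and the choline kinase CHKA to 47.0 ± 2.22 CPM, against 65.6 ± 0.541 CPM (-0.48 ± 0.11, adjusted p = 0.00375).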
